A study of Mus musculus with 12 samples.

Results

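The genes of glycolysis and of the sugar phosphate pathways that branch from it, with *Mpi*, were followed in RNA-seq libraries of cultured mouse microglia. The set holds 38 genes listed by symbol, out of 48623 genes in the table of expression values. Where a symbol had several identifiers, the one with the highest mean was taken, which applied to 1 gene, *Aldoa*. All 38 were found, and all 38 passed the limit on low values that 11204 genes of the table passed. The cells were primary microglia, the resident macrophages of the brain, taken from the cortices and hippocampi of mouse pups of 1 to 3 days on a C57BL/6J background. The pups were wild-type (WT) or carried *Trem2* R47H on both alleles as a knock-in (KI), which changes an amino acid of a microglial surface receptor. The study describes the main effect of this knock-in in mice as lower *Trem2* expression through altered splicing. The 3 WT cultures are called T13, T33 and T43 here, and the 3 KI cultures T15, T22 and T32. From every culture came an untreated library and one that had received 20 ng/ml IL-4, an anti-inflammatory cytokine that signals through STAT6, for 48 h, so that 12 libraries formed 4 groups of 3. The study describes the WT pups as littermates of the KI pups, with each pup of the line cultured on its own and genotyped later, and microglia were separated from the astrocyte layer by mild trypsinization. Which cultures shared a litter is not given in the sources used here. Genotype differed between cultures and IL-4 within each culture.

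In glycolysis, glucose enters through transporters, is phosphorylated by hexokinases and is split and oxidised in a chain of enzymes to pyruvate, which lactate dehydrogenase can turn to lactate for export. Glucose 6-phosphate also feeds the pentose phosphate pathway, which yields NADPH and ribose, and fructose 6-phosphate feeds the mannose branch, in which phosphomannose isomerase, encoded by *Mpi*, makes mannose 6-phosphate for GDP-mannose and protein glycosylation. Macrophages and microglia are known to alter the use of these pathways when they are activated by pro-inflammatory or by anti-inflammatory signals, and *Hif1a* encodes a transcription factor subunit that drives many glycolytic genes.

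The values are TPM, an abundance corrected for transcript length whose sum is 1000000 in each library and which keeps no read depth. The SEs below start from the spread of libraries within groups and are drawn toward a variance trend over all genes. They are thus not the spread of 1 gene between cultures. For *Mpi*, the SE of untreated KI minus WT was 0.28, and 0.20 with no variance trend. The main fit also sets no culture block, so paired libraries enter its genotype tests like libraries of different cultures. Between 20750 and 23945 genes were above 0 per library. *Trem2* was lower in every KI library, at 325 to 769.9 TPM, than in every WT library, at 1190.4 to 1886 TPM, although TPM does not show the base change itself. The summed level of 14 microglial markers was 23589.99 to 30476 TPM in WT and 9913 to 22157 TPM in KI. By the tests used below 6 of the 14 were lower in KI, beside 0.357% of all genes. They were *Fcrls*, *Trem2*, *Aif1*, *Csf1r*, *Itgam* and *C1qb*. *Trem2*, the gene altered in KI, is part of the 14 and of their sum. With IL-4 *C1qa* was higher and *Cx3cr1* lower. In such bulk samples fewer cells of a type and less RNA per cell cannot be told apart. The KI culture T15 stood apart. Its summed level of 8 astrocyte markers was 4599 TPM untreated and 3509 TPM with IL-4, against 157 to 661 TPM in the other 10 libraries. None of these 8 was at 0 throughout, and *Gfap*, the defining astrocyte filament gene, was 3013 and 2157 TPM in T15 and 80.5 to 389 TPM elsewhere. The summed level of 10 fibroblast and mural cell markers was 704 to 1327 TPM in KI and 142 to 617 TPM in WT, with *Acta2* and *Tagln* higher in KI and 2 of the 10, *Myh11* and *Rgs5*, under 1 TPM in all libraries. Of 8 oligodendrocyte lineage markers, summed to 93.1 to 455 TPM in KI and 33.1 to 93.1 TPM in WT, *Olig1* was higher in KI. Neuronal markers summed to at most 20.6 TPM, with 4 of 6 under 1 TPM throughout and *Syt1* listed at 0. Of 4 endothelial markers, summed to 19.4 to 29.1 TPM untreated and 61 to 141 TPM with IL-4, *Cldn5* was listed at 0 and *Cdh5* was under 1 TPM throughout, and of the other 2, *Flt1* and *Pecam1*, *Flt1* passed the test for IL-4.

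The 38 genes together made up 9225 to 13997 of the 1000000 TPM of a library, the most in the untreated T15 library. Levels spanned a wide range. *Gapdh*, *Pkm*, *Aldoa* and *Eno1*, which act in the core chain from fructose bisphosphate to pyruvate, had mean levels of 1572, 1474, 1451 and 1267 TPM over the 12 libraries. *Taldo1* of the pentose phosphate pathway, *Pgam1* and *Ldha* followed with means of 896, 657 and 637 TPM. *Gapdh* ran from 1352 to 2129 TPM and *Eno1* from 1037 to 1848 TPM, and within a library *Gapdh* was above *Eno1* in 12 of 12. Neighbours in the order changed places in some libraries, as *Gapdh* was above *Pkm* in 10, *Pkm* above *Aldoa* in 7 and *Pgam1* above *Ldha* in 5 of the 12. At the low end were *Pfkfb2*, at 1.73 to 22.6 TPM, the transporter gene *Slc2a3*, at 0.0149 to 16.2 TPM, and *Eno2*, at 0.0321 to 13.4 TPM, for which small absolute changes give large log ratios. *Mpi* ranked 34 of the 38 by mean level. *Gapdh*, *Pgam1*, *Ldha*, *Eno1* and others have near-identical pseudogene copies, so that reads may be shared between copies in their values.

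**Figure D1:**
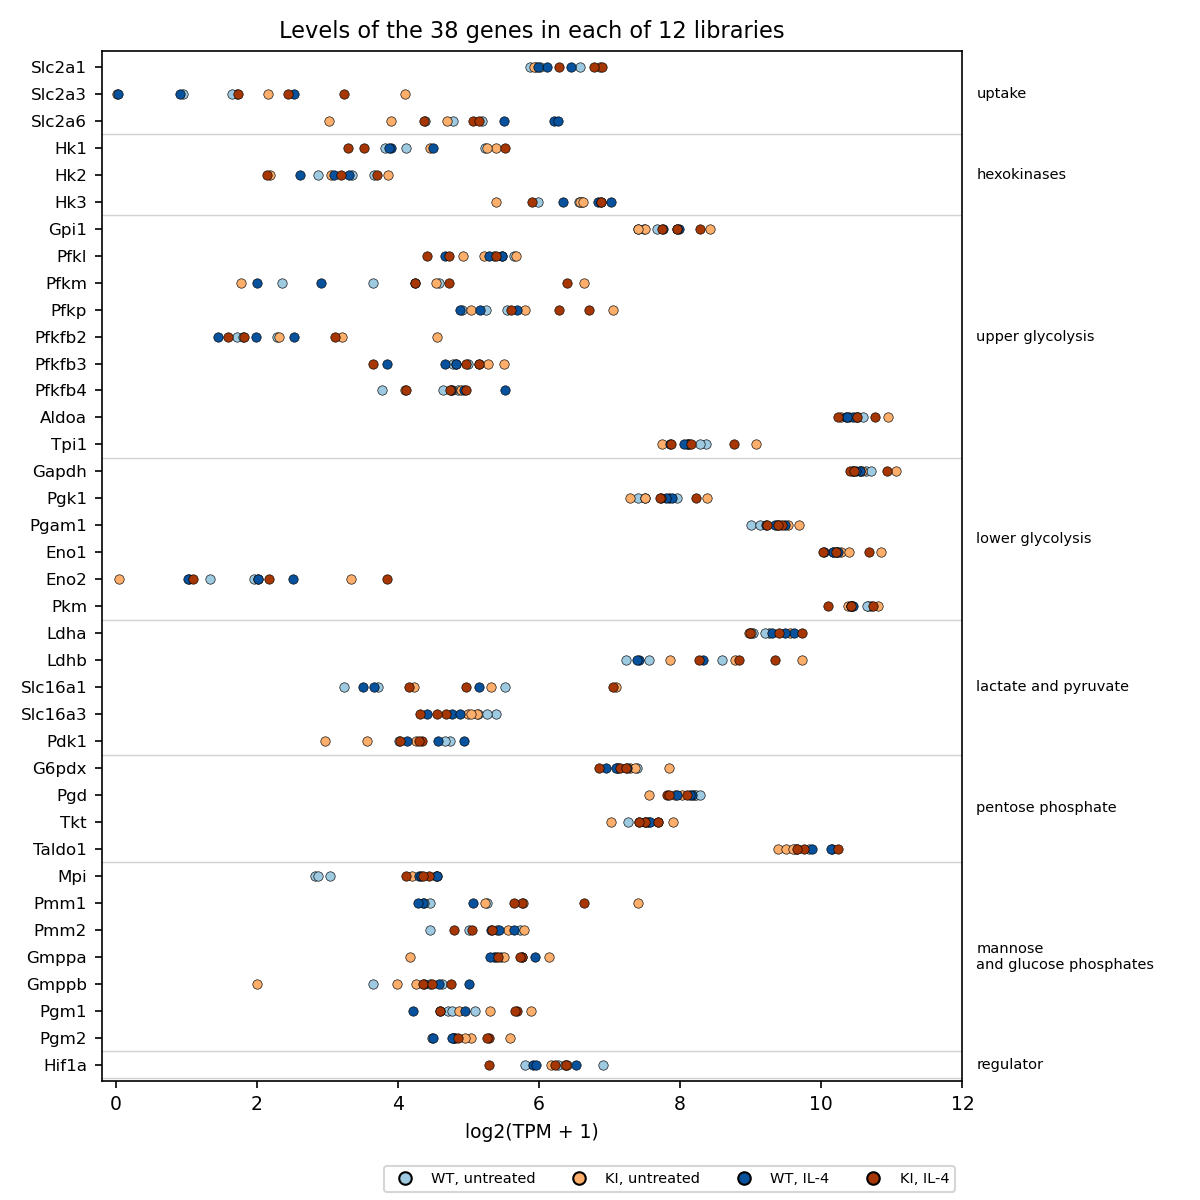
Levels of the 38 genes in each library as log2(TPM + 1), 1 point per library, coloured by genotype and treatment, with the genes grouped by role. The 4 genes of the core chain lie at 1037 TPM or more in every library, and for *Mpi* the 3 untreated WT libraries lie apart from the other 9.

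The members of an enzyme family were not used equally. *Hk3*, a hexokinase typical of myeloid cells, held the largest share of hexokinase TPM in 12 of 12 libraries, from 47.9% to 89.4%, with *Hk1* at 6.4% to 47.9% and the inducible *Hk2* at 2.62% to 10.5%. In untreated T15 *Hk1* and *Hk3* were level at the digits given, both at 47.9%. *Ldha*, the subunit that favours lactate formation, held 47.1% to 82.1% of lactate dehydrogenase TPM and was the larger share in 11 libraries. The exception was untreated T15, where *Ldhb*, the subunit found in heart and brain, held 52.9%. Among the phosphofructokinases, which catalyse the committed step, the platelet-type *Pfkp* led in 7 libraries and the liver-type *Pfkl* in 5. *Pfkp* led in every KI library, and *Pfkl* in every WT library except T33 with IL-4. The muscle-type *Pfkm* took 3.83% to 36.5%, with its highest shares in the T15 libraries at 35.2% and 36.5%. *Eno1* held 98.9% or more of the enolase TPM against *Eno2*. Of the lactate exporters *Slc16a1* was ahead in 6 libraries and *Slc16a3* in 6, with *Slc16a1* at 19.8% to 84.2%. *Slc16a1* led in both libraries of T13 and of T15, in untreated T32 and in T22 with IL-4. These shares are descriptions of levels per length and were not tested.

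**Figure D2:**
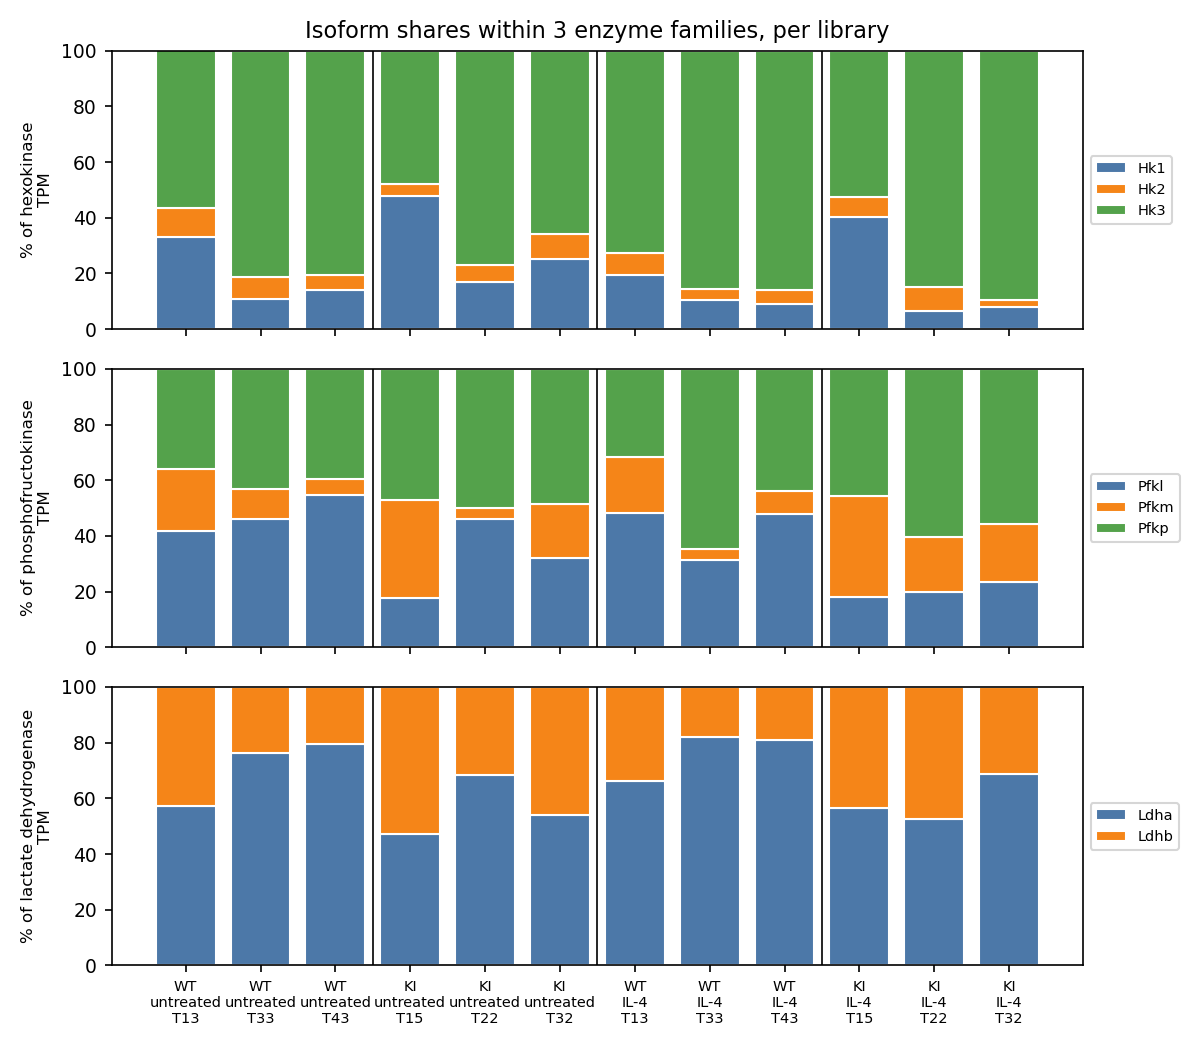
Share of each gene in the summed TPM of its enzyme family, in percent, for each of the 12 libraries, for hexokinases, phosphofructokinases and lactate dehydrogenases. *Hk3* leads in all 12 libraries, though nearly level with *Hk1* in untreated T15, and the T15 libraries have the largest shares of *Hk1* and *Pfkm*.

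To ask which of these genes differ between KI and WT microglia, log2(TPM + 1) values of all 11204 genes were fitted with limma with genotype, IL-4 and their interaction, and genotype and interaction were tested together by an F-test, with Benjamini-Hochberg adjustment over all genes and a threshold of 0.05. A p given below with an averaged difference is that of this F-test, or of the matching one for IL-4, which takes in the interaction as well, unless the averaged difference alone is named. *Mpi* was the only 1 of the 38 genes that passed (2.63%), beside 185 of all 11204 genes (1.65%), of which 145 were higher and 40 lower in KI. The 38 were listed with earlier results of these data known, so the share of *Mpi* among them is no test of the pathway. Under quantile normalization that split was 90 higher and 56 lower, and under median-ratio scaling 130 and 62. At an unadjusted p under 0.05 there were 6 of 38 (15.8%), namely *Ldhb*, *Mpi*, *Pfkp*, *Pgd*, *Pmm1* and *Slc2a6*, beside 16.1% of all genes. The median difference of the 38 genes, KI minus WT, was 0.127 on the log2 scale, with 24 above and 14 below 0, and that of all genes was 0.129. This value rested on T15. Without that culture the median of the 37 genes then tested was -0.032, with 17 above and 20 below 0, beside 0.093 for all genes. Under median-ratio scaling it was 0.007 with 19 on each side, and that of all genes 0.018.

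*Mpi* encodes the enzyme that connects glycolysis with mannose metabolism (ENSMUSG00000032306, chromosome 9, 57544256 to 57552763 on the minus strand of GRCm38). The untreated WT libraries held 7.18 (T13), 6.08 (T33) and 6.3 TPM (T43), and the untreated KI libraries held 22.4 (T15), 17.3 (T22) and 22.2 TPM (T32). After IL-4 the WT libraries held 18.6, 22.4 and 19 TPM and the KI libraries 20.7, 16.4 and 19.5 TPM, in the same order of cultures. The 3 untreated WT libraries were thus low and the other 9, with a mean of 19.8 ± 2.25 TPM (SD, n = 9), were all higher, the lowest of them 2.28 times the highest untreated WT value. Untreated means were 6.52 ± 0.582 TPM in WT and 20.6 ± 2.92 TPM in KI (SD, n = 3 each), a ratio of 3.16, and after IL-4 they were 20 ± 2.08 and 18.8 ± 2.23 TPM, a ratio of 0.942.

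**Figure D3:**
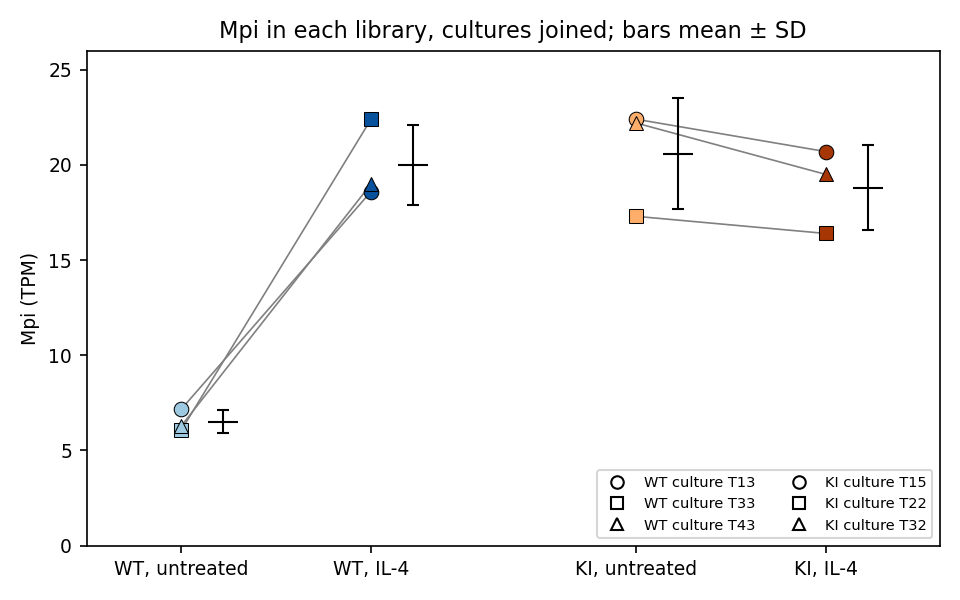
*Mpi* in TPM in each of the 12 libraries, with lines joining the untreated and the IL-4-treated library of a culture and bars for the mean and SD of each group of 3. The 3 untreated WT libraries lie at 6.08 to 7.18 TPM and the other 9 at 16.4 to 22.4 TPM.

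Averaged over treatments, the difference of *Mpi* was 0.72 on the log2 scale (SE 0.20), in a table whose median gene was shifted by 0.129. The F-test of genotype with interaction gave an adjusted p of 0.0367 in limma, whereas the averaged difference alone missed the threshold (adjusted p = 0.051, and 0.0339 to 0.266 over the alternatives). In the untreated libraries alone the difference was 1.52 (SE 0.28, adjusted p = 0.0245, with 102 of 11204 genes, 0.91%, passing in that contrast). After IL-4 it was -0.08 (SE 0.28, 95% interval -0.68 to 0.51, adjusted p = 0.963, with 2 genes, 0.0179%, passing). The F-test call was lost under quantile normalization (0.47, adjusted p = 0.0763) and with an astrocyte score, the mean log2(TPM + 1) of the 8 markers, as a covariate (0.61, adjusted p = 0.091). It did not hold when any 1 culture was left out, with adjusted p from 0.0516 without T22 to 0.215 without T43, with averaged differences between 0.65 and 0.82. The untreated contrast stayed past the threshold without T13 (adjusted p = 0.0479) and without T22 (0.0346) and lost it without T15 (0.079), T32 (0.0767), T33 (0.139) or T43 (0.138), with differences of 1.46 to 1.63. With the astrocyte score as a covariate the untreated difference was 1.42 (adjusted p = 0.0474). Over the settings that kept all cultures, the adjusted p for the untreated contrast ran from 0.0117 to 0.0575, the last under quantile normalization.

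The 3 untreated WT libraries lay below all 9 others for 203 of 11204 genes (1.81%) and, of the 38, for *Mpi* alone, and they lay above all 9 for 78 genes (0.696%), among them *Pgd* and *Slc16a3*. By the gap between the highest untreated WT value and the lowest other value, *Mpi* had the widest of the 203, 1.08 on the log2(TPM + 1) scale, over 12 libraries. *Irgq* and *Msrb3* came next with gaps of 0.99 and 0.88, at 0.932 TPM or less in untreated WT and at most 8.12 TPM elsewhere. The order depends on the 1 added to each TPM. *Traf1*, at rank 5 with a gap of 0.67, was at most 0.0235 TPM in untreated WT and at least 0.632 TPM elsewhere. The genes near *Mpi* on chromosome 9 did not share its call. Of the 4 nearest annotated genes on each side, 4 were expressed above the limit, *Cox5a*, *Fam219b*, *Scamp2* and *Ulk3*, with adjusted p of 0.338 to 0.909 for genotype and 0.672 to 0.949 for IL-4. The nearest, *Fam219b*, lies 1071 bases away, so no annotated gene overlaps *Mpi* among them. The annotation lists 5 *Mpi* transcripts, of which 1 codes for the protein, with 8 exons and 1780 bases, and a gene-level TPM does not separate it from the 3 retained-intron forms and the 1 form marked for nonsense-mediated decay.

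Which of the 38 genes respond to IL-4 was asked with the F-test of IL-4 and interaction together. *Mpi* was again the only 1 that passed (2.63%), beside 100 of 11204 genes (0.893%), of which 84 rose and 16 fell. The same limit from the choice of the genes holds for this share. Averaged over genotypes, *Mpi* differed by 0.68 with IL-4 (SE 0.20), with a limma F-test adjusted p of 0.0489. The averaged difference alone did not pass (adjusted p = 0.145, and 0.0287 with no filter on low values to 0.546 without T33), nor did that of any other of the 38 genes, where 151 of all genes (1.35%) passed. In WT it rose by 1.26 in T13, 1.72 in T33 and 1.46 in T43, a mean of 1.48 (SE 0.28, adjusted p = 0.0266) and a ratio of mean TPM of 3.07, where 64 genes (0.571%) passed. In KI it changed by -0.11 in T15, -0.07 in T22 and -0.18 in T32, a mean of -0.12 (SE 0.28, 95% interval -0.72 to 0.47, adjusted p = 0.966), where 45 genes (0.402%) passed. Each untreated library and its IL-4 partner come from the same culture. With the culture as a fixed replicate block the F-test call was lost (adjusted p = 0.0776) and the WT call was kept (0.0402). With the culture as a random block both were kept, at 0.0177 and 0.0089. The F-test call was also lost under median-ratio scaling (adjusted p = 0.0633) and quantile normalization (0.0828), and without any 1 culture, with adjusted p from 0.0641 without T15 to 0.5 without T33. The WT call was lost without T13 (0.222), T33 (0.377) or T43 (0.385), each of which leaves 2 WT cultures. It was kept without T15 (0.0311), T22 (0.0437) or T32 (0.044).

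Whether the IL-4 response differs between genotypes is given by the interaction. None of the 38 genes passed, nor did any of the 11204 genes (0.0%), and at an unadjusted p under 0.05 there were 357 genes (3.19%) and 2 of the 38, *Mpi* and *Pmm2*. For *Mpi* the response was smaller in KI by a difference of -1.60 (SE 0.39, 95% interval -2.44 to -0.76, unadjusted p = 0.00116, adjusted p = 1), which gave it rank 4 of 11204 by p. The difference kept its sign in 15 of 15 alternatives, from -1.73 to -1.48, and its adjusted p was above the threshold in all of them, at 0.0854 or more. *Pmm2*, which encodes the main phosphomannomutase, changed by 0.31, -0.30 and 1.19 with IL-4 in T13, T33 and T43 and by -0.22, -0.61 and -0.74 in T15, T22 and T32, an interaction of -0.92 (SE 0.41, unadjusted p = 0.0424, adjusted p = 1). Without T43 it was -0.53 (unadjusted p = 0.23).

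**Figure D4:**
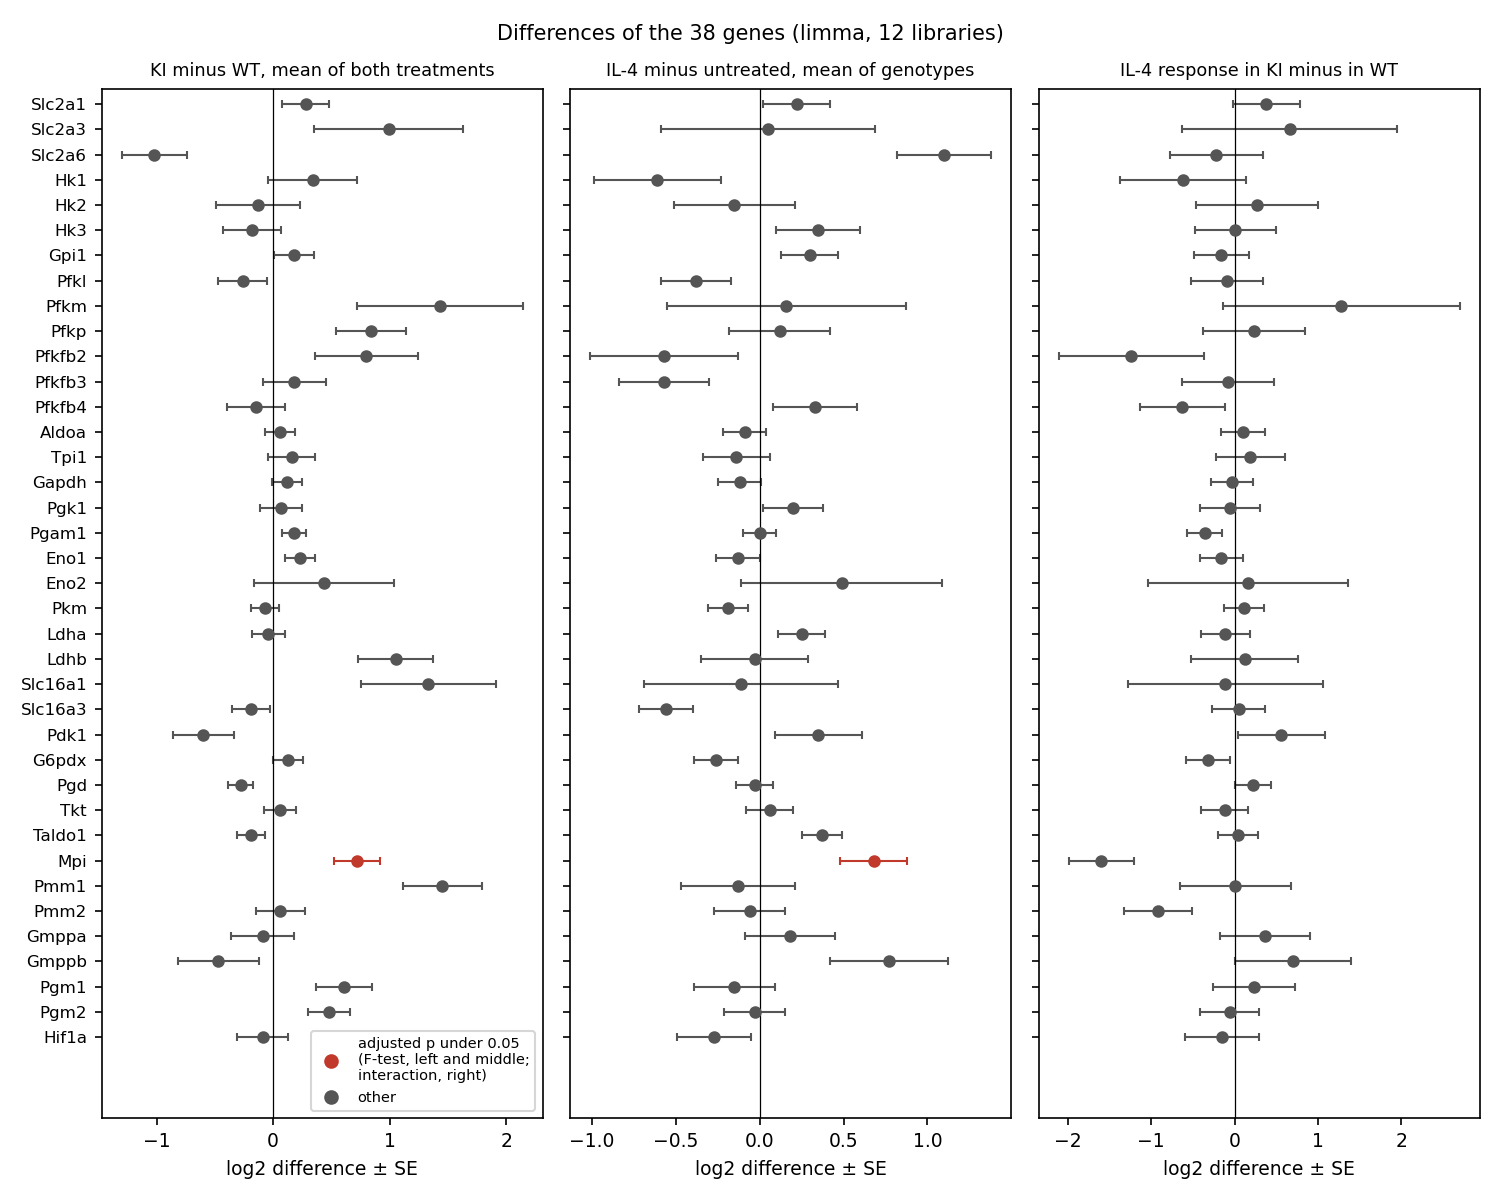
Difference of each of the 38 genes on the log2(TPM + 1) scale with its SE, for KI minus WT, for IL-4 minus untreated and for the interaction, from the limma fit over 12 libraries. Red marks a gene whose adjusted p is under 0.05 in the F-test with interaction (left and middle) or in the interaction test (right), which holds for *Mpi* in the left and middle panels and for no gene in the right one. The averaged differences alone pass for *Pmm1* and not for *Mpi* for genotype, and for no gene for IL-4.

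The letters upstream of *Mpi* are shown because *Mpi* was the gene that passed for IL-4, and a palindrome of the type bound by STAT6, TTC and GAA with 4 bases between them, was looked for on both strands of the 250 bases before each start of transcription, in RefSeq promoters of GRCm38.p6. Of the 38 genes, 36 matched an entry, with 51 starts in all. *Mpi* held 1 match, from 51 to 42 bases before its RefSeq start, in chr9:57552753-57553002 on the minus strand, in capitals below.
Mpi: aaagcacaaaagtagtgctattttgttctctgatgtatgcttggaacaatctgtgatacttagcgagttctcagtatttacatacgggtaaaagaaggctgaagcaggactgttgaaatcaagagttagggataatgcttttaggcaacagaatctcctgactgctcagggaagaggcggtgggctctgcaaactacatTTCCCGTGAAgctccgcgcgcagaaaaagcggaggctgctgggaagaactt
The same motif was present in 6 of the 51 promoters (11.8%), those of *Gpi1*, *Hif1a*, *Hk3*, *Ldha*, *Mpi* and *Pgd*, and in 5.85% of all 32851 promoters. Of these 6 genes, only *Mpi* passed a test, and a match of letters says nothing about binding.

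Among the other genes of the mannose and glucose phosphate branch, *Pmm1*, which encodes the second phosphomannomutase, had an averaged genotype difference of 1.45. It held 37.5, 20.9 and 19.7 TPM in WT and 169, 36.8 and 53.6 TPM in KI when untreated, 32.6, 19.5 and 18.4 TPM in WT with IL-4 and 99, 53.2 and 49.2 TPM in KI with IL-4. Genotypes overlapped when untreated, through T13 and T22, and did not after IL-4. The difference (SE 0.34) had an F-test adjusted p of 0.0881, and one of 0.0271 when the averaged difference alone was tested, where 575 genes (5.13%) passed and *Pmm1* was the only 1 of the 38. That call was lost without T15 (0.0646), T33 (0.145) or T43 (0.172), with the score (0.0606), with no variance trend (0.0686) and with no filter on low values (0.2). Both T15 libraries were above all others. Without T15 the F-test gave 0.97 (adjusted p = 0.163), and with the astrocyte score 0.70 (0.16). For *Gmppa* and *Gmppb*, subunits of the enzyme that makes GDP-mannose, levels were 17 to 69.4 and 3 to 31.1 TPM, with genotype differences of -0.09 (SE 0.27) and -0.47 (SE 0.35) and IL-4 differences of 0.18 (SE 0.27) and 0.77 (SE 0.35), none of which passed. *Pgm1* and *Pgm2*, the phosphoglucomutases that connect glucose 1-phosphate with glucose 6-phosphate, were 0.61 (SE 0.24, adjusted p = 0.358) and 0.48 (SE 0.18, adjusted p = 0.322) above WT. *Pgm2* lay higher in every KI than in every WT library within each treatment, at 29.9 to 46.9 against 21.3 to 26.9 TPM untreated and at 27.9 to 38.1 against 21.5 to 26.8 TPM with IL-4. Higher without overlap in untreated KI were 5 of the 38 (13.2%, beside 13.6% of all genes), *Eno1*, *Mpi*, *Pfkfb2*, *Pgam1* and *Pgm2*, and after IL-4 2 of 38 (5.26%, beside 12.7%), *Pgm2* and *Pmm1*.

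None of the 3 glucose uptake genes passed for genotype or IL-4. *Slc2a6*, a glucose transporter family member found in macrophages, was at 35.4, 26.5 and 19.8 TPM in WT and at 14, 7.12 and 24.8 TPM in KI before IL-4. After IL-4 it held 72.8, 44.4 and 76.1 TPM in WT and 32.4, 34.4 and 19.6 TPM in KI, where every KI library was below every WT library. This was the only 1 of the 38 that was lower in KI without overlap after IL-4 (2.63%, beside 5.79% of all genes). The genotype difference was -1.02 (SE 0.28), with an F-test adjusted p of 0.152 and one of 0.0524 for the averaged difference alone. The last passed under quantile normalization (-1.21, adjusted p = 0.0205), median-ratio scaling (-1.14, 0.0226) and a filter at 3 (0.0462) and without T32 (0.0352), and not under the other alternatives. The IL-4 difference was 1.10 (SE 0.28), higher in 5 of 6 cultures with T32 as the exception, with an F-test adjusted p of 0.269 and one of 0.0927 for the averaged difference alone. With the culture as a random block the last was 0.0461, and as a fixed block 0.0665, and it was also past the threshold without T32 (0.0237) and with the astrocyte score (0.0443). Its interaction of -0.22 (SE 0.56, adjusted p = 1) did not pass. *Slc2a1*, the main glucose transporter of glia, ran from 57.3 to 118 TPM, with differences of 0.28 (SE 0.20) for genotype and 0.22 (SE 0.20) for IL-4, and the neuronal-type *Slc2a3* differed by 0.99 (SE 0.64) between genotypes at levels near 0 in 2 libraries. The hexokinases did not pass either. *Hk3* was higher with IL-4 in 6 of 6 cultures by 0.23 to 0.51, a mean of 0.35 (SE 0.25, adjusted p = 0.977), and *Hk1* and *Hk2* had IL-4 differences of -0.61 (SE 0.38) and -0.15 (SE 0.36).

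In upper glycolysis none of the 9 genes passed for genotype or IL-4. *Pfkp* differed between genotypes by 0.84 (SE 0.30, adjusted p = 0.296) and *Pfkm* by 1.43 (SE 0.71, adjusted p = 0.463). For *Pfkp* the untreated libraries held 37, 45.9 and 28.9 TPM in WT and 132, 31.8 and 54.9 TPM in KI, and the difference was 0.44 without T15 (adjusted p = 0.546) and 0.37 with the astrocyte score (0.813). *Pfkfb2*, *Pfkfb3* and *Pfkfb4* make and degrade fructose 2,6-bisphosphate, the activator of phosphofructokinase. The untreated level of *Pfkfb2* was 2.29, 3.87 and 2.5 TPM in WT and 8.21, 3.96 and 22.6 TPM in KI, with the lowest KI value just above the highest WT value, and its averaged difference was 0.80 (SE 0.44, adjusted p = 0.425). *Pfkfb3* was lower with IL-4 in 5 of 6 cultures, by an average of -0.57 (SE 0.27, adjusted p = 0.886), and *Pfkfb4* higher in 5 of 6, by 0.33 (SE 0.25, adjusted p = 0.942). *Gpi1*, *Pfkl*, *Aldoa* and *Tpi1* had genotype differences between -0.26 and 0.18 and IL-4 differences between -0.38 and 0.30.

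In lower glycolysis none of the 6 genes passed. *Pgam1*, phosphoglycerate mutase, held 512, 660.1 and 562 TPM in WT and 819.8, 737 and 672 TPM in KI when untreated, 594, 714 and 649 TPM in WT with IL-4 and 694, 597 and 667 TPM in KI with IL-4. Untreated KI lay above untreated WT without overlap by 0.36 (SE 0.15, adjusted p = 0.234), and after IL-4 the difference was 0.00 (SE 0.15, adjusted p = 0.999). With IL-4 it was higher in 3 of 3 WT cultures and lower in 3 of 3 KI cultures, as was *Mpi*, a pattern of 2 of 38 genes (5.26%) and of 1.79% of all genes, and the reverse was seen for none of the 38 and 0.937% of all. *Eno1* was above WT without overlap when untreated, at 1248 to 1848 against 1146 to 1192 TPM, with an averaged difference of 0.23 (SE 0.13, adjusted p = 0.568). *Pkm*, pyruvate kinase, was lower with IL-4 in 6 of 6 cultures by 0.02 to 0.30, an average of -0.19 (SE 0.12, adjusted p = 0.963). *Gapdh* and *Pgk1* differed by 0.12 (SE 0.13) and 0.07 (SE 0.18) between genotypes, and *Eno2*, near 0 in 1 library, by 0.44 (SE 0.60).

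At the end of the chain, *Slc16a3*, the exporter of lactate from glycolytic cells, held 41, 34.3 and 37.5 TPM in WT and 30.9, 33.8 and 31.8 TPM in KI when untreated, all 3 KI values below the WT values. With IL-4 it held 26.2, 28.3 and 20.3 TPM in WT and 24.6, 18.9 and 22.4 TPM in KI. Every IL-4 value was below every untreated value, and the level was lower with IL-4 in 6 of 6 cultures, by 0.27 to 0.85. The average was -0.56 (SE 0.16). The F-test gave an unadjusted p of 0.0125 and an adjusted p of 0.373, with adjusted p of 0.193 to 1 over the alternatives, and the averaged difference alone an unadjusted p of 0.00364 and an adjusted p of 0.14. Lower in 6 of 6 cultures were 3 of the 38 (7.89%, beside 2.51% of all genes), *G6pdx*, *Pkm* and *Slc16a3*, and higher in 6 of 6 were 3 (7.89%, beside 5.73%), *Hk3*, *Ldha* and *Taldo1*. For *Ldha* the difference was 0.02 to 0.40 per culture, with an average of 0.25 (SE 0.14, adjusted p = 0.944). *Ldhb* held 387, 188 and 149.6 TPM in WT and 849, 231 and 438 TPM in KI when untreated, overlapping through T13 and T22. Its genotype difference of 1.05 (SE 0.32) had an adjusted p of 0.202, and was 0.68 without T15 (0.465) and 0.35 with the astrocyte score (0.602), and 1.40 without T13 (0.0831). *Slc16a1*, which carries lactate and pyruvate in astrocytes and other cells, differed by 1.33 (SE 0.58, adjusted p = 0.437), and *Pdk1*, which restrains the entry of pyruvate into mitochondria, by -0.60 (SE 0.26, adjusted p = 0.355).

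In the pentose phosphate pathway, *Pgd*, the second NADPH-forming enzyme, was highest in untreated WT, at 291, 298 and 309 TPM, and held 243, 187 and 259 TPM in untreated KI, 248, 288 and 281 TPM in WT with IL-4 and 225, 228 and 272 TPM in KI with IL-4. The genotype difference was -0.28 (SE 0.11, unadjusted p = 0.0473, adjusted p = 0.303). *Taldo1*, transaldolase, was higher with IL-4 in 6 of 6 cultures by 0.17 to 0.64, at 836 ± 64 against 1066 ± 111 TPM in WT and 722 ± 54.1 against 959.9 ± 218 TPM in KI (SD, n = 3 each). The average was 0.37 (SE 0.12), with an unadjusted p of 0.0243 and an adjusted p of 0.535 in the F-test, and of 0.00745 and 0.216 for the averaged difference alone. With the culture as a fixed block that adjusted p was 0.0279, and as a random block 0.087, while quantile normalization gave a difference of 0.17. *G6pdx*, the entry enzyme, was lower with IL-4 in 6 of 6 cultures by 0.03 to 0.69, with an average of -0.26 (SE 0.13, adjusted p = 0.817), and *Tkt*, transketolase, differed by 0.06 (SE 0.14) with IL-4. Lower in untreated KI without overlap were 3 of the 38 (7.89%, beside 4.55% of all genes), *Pgd*, *Slc16a3* and *Taldo1*. *Hif1a* ranged from 38.2 to 119 TPM, with differences of -0.09 (SE 0.22) for genotype and -0.27 (SE 0.22) for IL-4. Over all 38 genes the IL-4 difference had a median of -0.029, with 17 above and 21 below 0, beside 0.043 for all genes. The median was 0.035 over the 37 genes tested without T15, beside 0.033 for all genes. It was -0.104 without T22, beside 0.01, and -0.117 under quantile normalization, beside -0.022. At an unadjusted p under 0.05 there were 4 (10.5%, beside 7.27% of all), *Mpi*, *Slc16a3*, *Slc2a6* and *Taldo1*.

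Several genes with large genotype differences were highest in T15. Both T15 libraries lay above all 10 others for 16 of the 38 genes (42.1%) and for 14.4% of all genes. These 16 were *Slc2a1*, *Slc2a3*, *Hk1*, *Gpi1*, *Pfkm*, *Pfkp*, *Aldoa*, *Tpi1*, *Gapdh*, *Pgk1*, *Eno1*, *Pkm*, *Ldhb*, *Slc16a1*, *Pmm1* and *Pgm1*. *Slc16a1* held 135 and 131 TPM in T15 against 8.44 to 44.9 TPM elsewhere, 7.71 times the median of the others, and *Pfkm* held 98.7 and 83.2 TPM against 2.43 to 25.3 TPM. For *Pkm* the ratio was 1.26. *Hk3* alone lay below all others in both T15 libraries, at 41 and 58.8 TPM against 62.5 to 129 TPM, as did 3.79% of all genes. Across the libraries *Slc16a1*, *Pfkm*, *Pmm1* and *Ldhb* were high where the astrocyte marker level was high, and *Mpi* was at 20.7 to 22.4 TPM in T15, within the 16.4 to 22.4 TPM of the other libraries outside untreated WT. The part of astrocyte RNA in these levels was not tested.

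**Figure D5:**
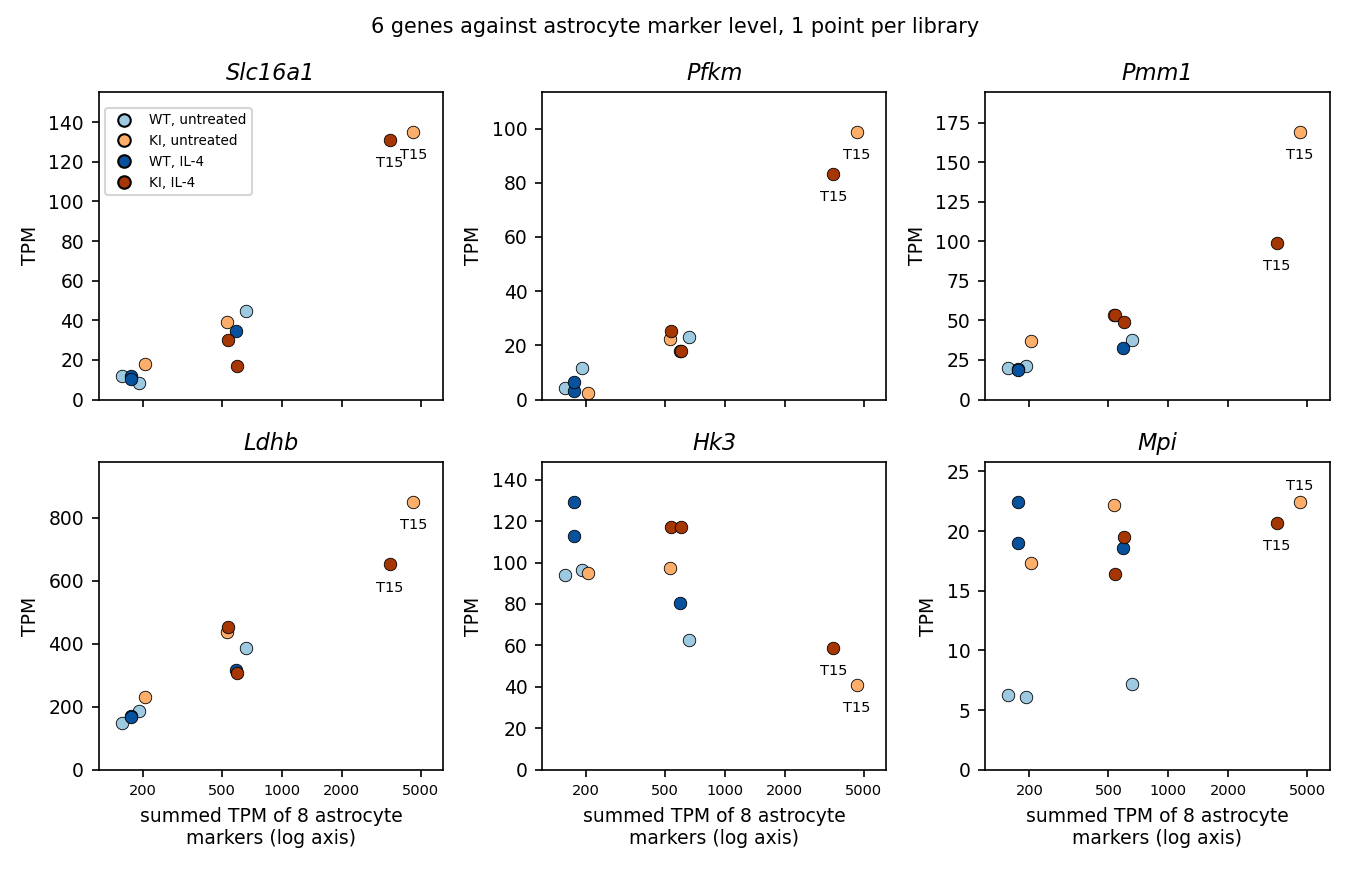
TPM of 6 of the genes against the summed TPM of 8 astrocyte markers on a log axis, 1 point per library, with the T15 libraries named. *Slc16a1*, *Pfkm*, *Pmm1* and *Ldhb* are highest and *Hk3* lowest in T15, whereas *Mpi* is low in the 3 untreated WT libraries, whose marker levels are 157 to 661 TPM.

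Further genes of these pathways were taken from lists drawn up beside the 38. Of 33 other glycolysis genes 18 could be tested, and none passed for genotype or IL-4, with 2 and 1 at an unadjusted p under 0.05, a level passed by 16.1% and 7.27% of all genes. Of 21 genes of the HIF pathway and its targets 20 could be tested, with none past the threshold and 2 and 1 at an unadjusted p under 0.05. Of 42 other genes of the pentose phosphate and sugar nucleotide pathways 37 could be tested, with 7 and 4 at an unadjusted p under 0.05, to be read against the same shares. None passed for genotype, and 1 of the 37 passed for IL-4, beside 0.893% of all genes. It was *Mgat1*, which encodes the enzyme that starts complex N-glycan branches. Untreated libraries held 50.9, 52.8 and 30.2 TPM in WT and 50.8, 53.4 and 45.6 TPM in KI, and IL-4 libraries 118, 106 and 109.9 TPM in WT and 69.4, 106 and 79.6 TPM in KI, all above the untreated ones. The averaged difference was 1.04 (SE 0.16, F-test adjusted p = 0.0109). None of the 3 lists held a gene that passed for the interaction.

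The promoters of the 38 genes were also searched for ACGTG, the core of the element bound by HIF, on both strands. It was found in 21 of the 51 (41.2%), belonging to 17 of the 36 matched genes, and in 16.6% of all 32851 promoters of the same length. It was held by 2 of the 3 genes that were lower in 6 of 6 cultures after IL-4, *Pkm* and *Slc16a3*, and by 2 of the 3 that were higher, *Hk3* and *Ldha*. *Slc16a3*, which had the largest IL-4 difference of these 4, is shown. RefSeq gives 1 start for it, at 120949067 on chromosome 11, which lies 587 bases downstream of the first start in the annotation, so the stretch shown lies inside the annotated gene. The matches lie at 27 to 23 and at 14 to 10 bases before the RefSeq start, in chr11:120948817-120949066 on the plus strand, in capitals.
Slc16a3: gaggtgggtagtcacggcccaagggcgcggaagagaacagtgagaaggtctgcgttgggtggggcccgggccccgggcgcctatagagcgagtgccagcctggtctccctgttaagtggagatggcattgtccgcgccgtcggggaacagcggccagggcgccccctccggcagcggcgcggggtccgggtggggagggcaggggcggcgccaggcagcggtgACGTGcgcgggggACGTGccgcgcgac
*Hif1a* itself did not pass a test, and the share of promoters describes letters only.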

How the data were processed

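Poly(A)-primed libraries of 12 samples were analysed. Reads were trimmed (Trim Galore) and assigned to ENSEMBL GRCm38 transcripts (Salmon) by the authors, who used tximport for gene-level values. TPM was deposited for each gene and library, corrected by the authors for transcript length and library size. Tool versions were not given in the sources used here. TPM keeps no counts, so the depth behind a value is unknown. The authors tested counts with DESeq2, and since those counts were not analysed here, limma took its place. Identifiers were matched to GENCODE M21, which named 48419 of 48623, and 0 columns were left unmapped.

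Values were log2(TPM + 1), and genes with a mean above 1.5 on this scale entered a limma fit (version 3.58.1, R 4.3.3, variance trend, no block). A fold on this scale understates the change of low genes. p-values were adjusted by Benjamini-Hochberg over all genes tested, with a threshold of 0.05. Tables were made in Python 3.11.15. The fit was tested on simulated data. The members and lists were chosen with earlier results of these data known. All 38 genes are named, with values per library for those past a threshold and for others described at length, which were chosen after their values were seen. From the other lists each gene past the threshold is named.

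The 2 libraries of a culture share the culture number in their titles, so they are paired. Their deviations from the group means correlated by 0.0792 (T32) to 0.378 (T15). The culture was set as a random replicate block for genotype (within-culture correlation 0.198) and a fixed one for the tests within cultures, as alternatives to the fit without it. The other alternatives were quantile normalization, scaling by median ratios, a filter at 3 or none, a pseudocount of 0.1, no variance trend, single contrasts and leaving out each culture. The random block for IL-4 and the interaction, the averaged differences alone under every alternative, and a covariate for the level of astrocyte markers were added after seeing the data.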

Additional observations from a re-analysis of the deposited data

Results flagged for a closer look

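For 2 of the 38 genes the level was higher with IL-4 in every WT culture and lower in every KI culture. In KI the changes ran from -0.18 to -0.07 for *Mpi* (SE of their mean 0.28) and from -0.30 to -0.01 for *Pgam1*, so some of these signs rest on small values. *Mpi* rose by a mean of 1.48 on the log2 scale in WT and changed by -0.12 in KI, a difference of -1.60 (SE 0.39, unadjusted p = 0.00116 and adjusted p = 1 in limma's interaction test, n = 3 cultures each). *Pgam1* changed by 0.18 in WT and by -0.18 in KI, a difference of -0.36 (SE 0.21, unadjusted p = 0.104, adjusted p = 1). Neither interaction passed the correction, and 1.79% of all genes had this pattern of signs and 0.937% the reverse. Groups of 3 libraries were not tested for outlying samples.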

How the results depend on the processing

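Of 174 pairs of a gene's difference and an alternative, over 12 differences, 157 kept their direction and their side of the threshold, 17 kept the direction but lost the threshold, all of them *Mpi*, and 0 reversed. Only the genotype and IL-4 differences of *Mpi* had passed in the main fit, so the other differences had no call to lose. *Mpi* lost its call in 8 of 14 alternatives for genotype and in 9 of 15 for IL-4. For genotype the number of the 38 genes that passed was 1, and 0 under quantile normalization, with the astrocyte score as a covariate (added after seeing the data) and in the IL-4-treated libraries alone. It was 0 to 0 over the 6 fits that leave out a culture. *Mpi* then had differences of 0.65 to 0.82, and 0.47 under quantile normalization (adjusted p = 0.0763) and 0.61 with the score (0.091). Over the alternatives with all cultures its adjusted p was 0.0215 to 0.091. For IL-4 the number was 1, and 0 under quantile normalization, median-ratio scaling, the averaged difference alone, the KI libraries alone and each fit that leaves out a culture (0 to 0). With the culture as a fixed replicate block it was 0 as well, with an adjusted p of 0.0776 for *Mpi*. With a random block (added after seeing the data) it was 1 (0.0177). Beside the all-gene count of 100 the fixed block gave 240, the random one 162 and the averaged difference alone 151 for IL-4, and beside 185 the random block gave 77 and the averaged difference alone 575 for genotype, with the call of *Mpi* kept at 0.0464. The all-gene count for genotype was 71 with the score, 16 with no filter, 26 with no variance trend and 3 without T33 to 192 without T13. For IL-4 it was 46 without T43 to 144 without T15, 191 with the score, 50 with no variance trend and 61 with no filter. For the interaction 0 of the 38 passed throughout, and of all genes 4 passed with no filter and 0 otherwise. Testing the averaged genotype difference alone called *Pmm1* (adjusted p = 0.0271) and not *Mpi* (0.051). Of the alternatives to that test, a pseudocount of 0.1 called both and the filter at 3 both and *Slc2a6*, quantile normalization and median-ratio scaling each called *Pmm1* and *Slc2a6*, and no filter and no variance trend called *Mpi* alone. Without T22 it called *Ldhb*, *Mpi* and *Pmm1*, without T13 *Ldhb* and *Pmm1*, without T32 *Pmm1* and *Slc2a6*, and with the score or without T15, T33 or T43 none. Quantile normalization moved the median genotype difference of all genes from 0.129 to -0.063 and median-ratio scaling to 0.018. In the F-tests and the interaction the block changed no other call among the 38 genes. In tests of the averaged IL-4 difference alone the fixed block called *Taldo1* (0.0279) and the random one *Slc2a6* (0.0461), where the fit without a block called 0. Without a block *Mpi* passed there with no filter (0.0287) and *Slc2a6* without T32 (0.0237) and with the score (0.0443). For genotype the random block kept *Pmm1* (0.0388). Depth could not be assessed from TPM, and 3 cultures per genotype limit the precision.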
